A study of Mus musculus with 32 samples.

Results

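Breast tumour cells that had spread to the lung were compared between 2 places within the lung: its border and its centre. The comparison used 4 laser-captured metastasis regions labelled lung border (region numbers 40, 56, 57 and 58) and 3 labelled lung centre (2, 42 and 27), which are all 7 metastasis libraries among the 32 libraries of the study. Regions were chosen by the position in the sample labels and every gene was kept.

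All regions came from female mice of the genotype MMTV-PyMT; R26-CBW; K8-CreERT2, in which the MMTV promoter drives the polyoma middle T oncogene in mammary epithelium and a tamoxifen-activated Cre in keratin 8 cells switches on 1 of several fluorescent colours. Each mouse received 5 mg of tamoxifen at 5 weeks of age, and the age at collection is not stated in the labels. Patches of a single colour were cut from fixed 7 µm cryosections, and RNA was amplified with an oligo-dT, Smart-seq2 type protocol and sequenced. The other 25 libraries came from normal gland, hyperplasia, adenoma and carcinoma of the same mouse model, and 9 of them (3 carcinoma border, 6 carcinoma core) serve below as a second contrast of edge with inside. All 4 lung border patches were red (RFP), while the lung centre patches were yellow (YFP, region 2), red (RFP, region 42) and green (GFP, region 27), so colour and position are partly confounded. The series names 3 animals for all 32 regions and does not tie a region to an animal. Some of the 7 regions therefore share an animal, and every p-value below, which treats regions as independent, is too small.

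The lung surface is covered by the pleura, a thin layer of mesothelial cells over connective tissue, while the inside of the lung holds alveoli lined by flat type 1 and surfactant-secreting type 2 cells, a dense capillary bed and conducting airways. A metastasis can therefore have different neighbours at each place, and RNA of neighbouring cells enters a captured patch along with that of the tumour cells. In bulk RNA of this kind, fewer cells of a type and less RNA per cell cannot be told apart.

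No gene differed between lung border and lung centre past the threshold used, an adjusted p of 0.05 in the edgeR quasi-likelihood test with Benjamini-Hochberg adjustment, fitted over all 32 libraries. Of 22676 genes tested, 0 passed (0%), and the smallest adjusted p by edgeR was 0.532. At an unadjusted p of 0.05 there were 1995 genes, 1291 higher and 704 lower at the lung border. The other tools run on the same genes gave different counts: DESeq2 called 947 (776 higher, 171 lower), and 12 (7 higher, 5 lower) passed in limma voom with library weights. Over all genes, 12888 fitted log2 fold changes (lung border over lung centre) were above 0 and 8352 below, with a median of 0.30.

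The regions differed as much within a position as between positions. Levels are given as CPM, read counts scaled to a common library size (by TMM), and are compared between libraries for the same gene only. The Spearman correlation of log2(CPM + 1) across genes had a median of 0.694 over the 6 pairs of lung border regions, 0.72 over the 12 pairs of a lung border with a lung centre region, and 0.684 over the 3 pairs of lung centre regions, as a description of libraries that share genes and animals. Lung centre 42 stood apart: its 6 pairs had a median of 0.664, and without it the 8 mixed pairs had a median of 0.744 and the remaining lung centre pair 0.8. That library had 10383 genes with a count, against 12061 to 17517 in the lung border libraries and 15782 and 14444 in lung centre 2 and 27. It also held 123 genes above 100 CPM that stayed at or below 10 CPM in the other 6 libraries, against 3 to 36 such genes in each lung border library and 0 and 2 in lung centre 2 and 27. Total counts ran between 5920501 and 15884714 in the lung border libraries and between 6458250 and 14517850 in the lung centre libraries. A single gene ID without a symbol in the annotation used took 9.28% to 78.9% of the counts in the lung border libraries and 8.15% to 52.1% in the lung centre libraries. Lung border 40 (78.9%) and lung centre 42 (52.1%) were the highest.

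**Figure D1:**
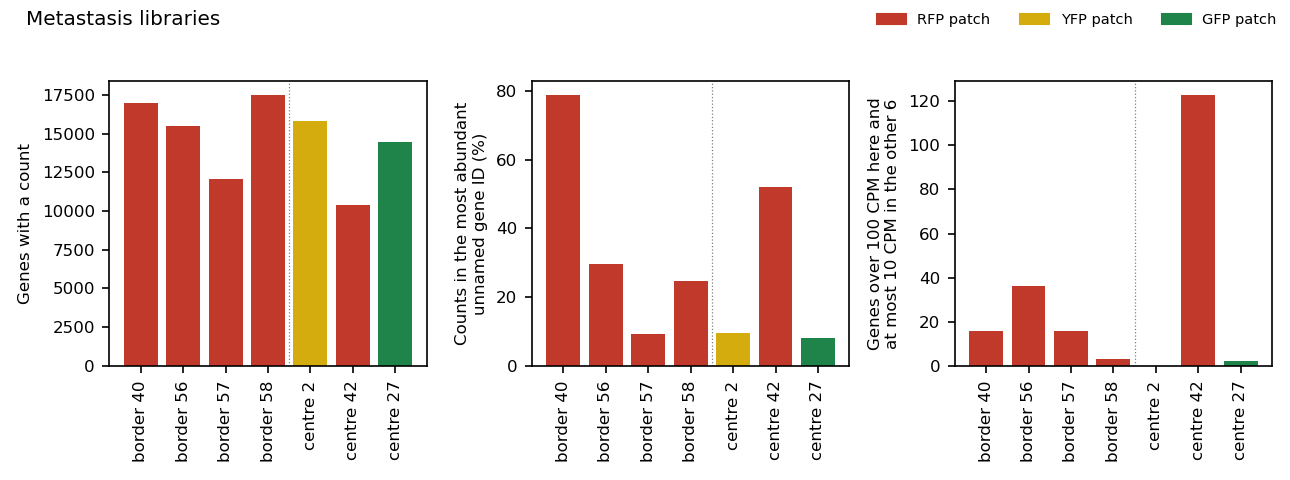
Bars give, for each metastasis library, the number of genes with a count, the percent of counts in the most abundant gene ID, and the number of genes above 100 CPM there and at most 10 CPM in the other 6 libraries. Lung border stands left of the dotted line and lung centre right of it, and colours mark the reporter; lung centre 42 has 123 such genes and lung border 40 has 78.9% of its counts in 1 ID.

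Epithelial genes and lung genes were both measured in all 7 libraries. Krt8, a keratin of luminal epithelium, had 482, 511, 749 and 499 CPM in lung border 40, 56, 57 and 58, against 683, 678 and 532 CPM in lung centre 2, 42 and 27. Epcam, an epithelial adhesion protein, had 206, 353, 563 and 330 CPM at the lung border, against 567, 229 and 480 CPM in the lung centre. Sftpc, the type 2 cell surfactant protein C, was present in all 7 at 245 to 3440 CPM in lung border and 412 to 3690 CPM in lung centre libraries, while the 9 carcinoma libraries had at most 0.631 CPM. The mesothelial markers Msln and Upk3b were at or near 0 at both positions. Msln (mesothelin) had 0, 1.63, 0 and 0.406 CPM in lung border 40, 56, 57 and 58, against 0.159, 0 and 0 CPM in lung centre 2, 42 and 27, and Upk3b had 0 counts in every one of them. Others of the list were measured in part of the libraries: Gpm6a had 16.3, 0, 0 and 22.3 CPM at the lung border, against 0.053, 0 and 22.2 CPM in the lung centre, and Nkain4 had 27.9 CPM in lung border 56 and at most 0.159 CPM elsewhere. Of the 13 mesothelium markers measured, 8 had a fold change above 0 and 4 below, with a median of 1.99 and 0 passing, and their mean log2(CPM + 1) was 0.76 to 1.56 at the lung border and 0.97 to 1.49 in the lung centre. Its largest member was Krt19, at 85.3 to 224 CPM in lung border and 143 to 288 CPM in lung centre libraries, which luminal epithelium expresses as well.

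Genes whose 4 lung border values all lay above, or all lay below, the 3 lung centre values numbered 366 (1.61% of those tested) and 299 (1.32%). A fixed rule chose 12 genes each way, and 22 of these 24 are described below. The rule took the genes of smallest p among the separated genes with a symbol, at least 20 CPM on average in the higher group and at least 10 counts in 3 of its libraries. None of the 24 passed the test, and their adjusted p by edgeR was 0.532 or 0.547, so their values are descriptions of these 7 libraries. DESeq2 called 21 of the 24, limma voom 3, and edgeR with reporter colour as a covariate 3. Separation was the ground for choosing them, so their direction is fixed by the choice, and the sizes given below are those of chosen genes.

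Jchain, which links antibody molecules made by plasma cells, lies on chromosome 5 (88519809 to 88527897 in the mm10 build). It had 58.8, 389, 25.5 and 1.72 CPM in lung border 40, 56, 57 and 58, against 0, 1.61 and 0 CPM in lung centre 2, 42 and 27. Lung border 56 held 81.9% of the lung border signal, and lung border 58 was at the level of lung centre 42, so the groups only just separate. The fitted log2 fold change was 8.28 (adjusted p = 0.547 by edgeR). Of the 14 lymphocyte markers measured, Jchain included, 9 had a fold change above 0 and 4 below, with a median of 2.05 and 0 passing. Cd79a, a B cell receptor subunit, had 0, 6.53, 0 and 0 CPM at the lung border and 0.053, 0 and 0 CPM in the lung centre. Cd8a and Ms4a1, markers of cytotoxic T cells and of B cells, were high in lung centre 42 alone, at 62.6 and 40 CPM, with at most 0.181 and 0.212 CPM in the other 6 libraries.

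Tlr1, a Toll-like receptor that recognises bacterial lipoproteins together with TLR2, had 39.4, 4.35, 0.731 and 36.6 CPM in lung border 40, 56, 57 and 58, and 0 counts in all 3 lung centre libraries. Against the floor of 3 counts in each lung centre library its mean was at least 51.3-fold higher at the lung border. The 0.731 CPM of Tlr1 in lung border 57 lay under that floor in lung centre 42 (0.806 CPM), so those 2 libraries cannot be told apart. The predicted gene Gm5087 had 1.99, 81.1, 101 and 3.25 CPM at the lung border and also 0 counts in the lung centre, and its mean was at least 118-fold higher on the same floor. High values of the 2 genes fell in different regions: 40 and 58 for Tlr1, 56 and 57 for Gm5087. In the carcinoma libraries their highest values were 2.48 CPM for Tlr1 and 7.99 CPM for Gm5087.

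Rmrp, the RNA component of a ribonuclease that processes ribosomal RNA, had 25.7, 116, 10.5 and 11.3 CPM in lung border 40, 56, 57 and 58, against 0, 0.806 and 0.594 CPM in lung centre 2, 42 and 27 (fitted log2 fold change 6.52, adjusted p = 0.547 by edgeR). Tmem177, a mitochondrial membrane protein, had 27.5, 117, 16 and 3.04 CPM at the lung border, against 0.212, 0 and 2.53 CPM in the lung centre. Zfp850, a zinc finger gene, had 69.1, 0.544, 2.74 and 18.4 CPM at the lung border, against 0.106, 0 and 0.371 CPM in the lung centre. Its 0.544 CPM in lung border 56 is 3 counts and lies under 3 counts in lung centre 42 (0.806 CPM), so that separation is uncertain. The highest lung border region gave 71.0% of the summed lung border CPM of Rmrp, 71.5% of that of Tmem177 and 76.2% of that of Zfp850. Lung border 56 was the highest for Rmrp and Tmem177, and lung border 40 for Zfp850.

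A further 6 genes were more evenly high among the lung border regions. Afap1, an adaptor that binds actin filaments, had 42.6, 22.7, 163 and 109 CPM in lung border 40, 56, 57 and 58, against 6.84, 12.4 and 7.35 CPM in lung centre 2, 42 and 27; it averaged 84.5 ± 64.3 CPM at the lung border (SD, n = 4) and 8.85 ± 3.05 CPM in the lung centre (SD, n = 3). Tmprss13, a membrane-bound serine protease, had 43, 31.6, 174 and 50.1 CPM at the lung border, against 3.29, 1.61 and 14.6 CPM in the lung centre. Commd7, a member of the COMM domain family, had 45.2, 83.4, 104 and 26.1 CPM at the lung border, against 12.4, 4.3 and 5.87 CPM in the lung centre. Here the lowest lung border region exceeded the highest lung centre region by more than the range of the lung centre in Afap1, Tmprss13 and Commd7. Tmem132a averaged 35.6 ± 15.6 CPM at the lung border and 4.22 ± 4.35 CPM in the lung centre. Tmem164 averaged 100 ± 60.8 CPM at the lung border and 9.74 ± 7.58 CPM in the lung centre. For 2510002D24Rik the means were 127 ± 86.3 CPM at the lung border (SD, n = 4) and 12.8 ± 12.1 CPM in the lung centre (SD, n = 3). Fitted log2 fold changes of the 6 lay between 3.05 and 3.51. Without lung centre 42 they lay between 2.72 and 3.56, with an adjusted p of 0.838 by edgeR for each.

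Afap1 had 24.8 to 86.7 CPM in the 9 carcinoma libraries with a median of 54.9 CPM, and Commd7 28 to 86 CPM with a median of 42.7 CPM. The carcinoma medians of all 6 genes lay above each of their 3 lung centre values. Lung border 57 and 58 exceeded every carcinoma library for Afap1, at 163 and 109 CPM.

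Rag2, part of the recombinase that joins antigen receptor genes in developing lymphocytes, had 0 counts in all 4 lung border libraries, against 42, 196 and 4.09 CPM in lung centre 2, 42 and 27. It lies on chromosome 2 (101624712 to 101632528). On the floor of 3 counts in each lung border library its mean was at least 188-fold lower at the lung border (adjusted p = 0.532 by edgeR; adjusted p = 0.000116 by limma voom and 0.379 by DESeq2). No carcinoma library exceeded 0.0435 CPM. Within the lung centre its level was highest in 42 and lowest in 27, and the lung centre mean was 80.7 CPM with 42 and 23.0 CPM without it.

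A collagen and a membrane transporter were among the genes lower at the lung border. Col4a5, a chain of basement membrane collagen IV, had 7.77, 32.8, 6.31 and 46.5 CPM in lung border 40, 56, 57 and 58, against 64.2, 983 and 96.3 CPM in lung centre 2, 42 and 27. It lies on chromosome X (141475370 to 141689236), and its fitted log2 fold change of -4.03 was -1.77 without lung centre 42. Lung centre 42 alone held 86% of the lung centre signal of Col4a5, and lung centre 2 and 27 were also above every lung border region. Slc24a2, a sodium, calcium and potassium exchanger, and Pik3r5, a regulatory subunit of phosphoinositide 3-kinase gamma, had 1340 and 193 CPM in lung centre 42. In lung centre 2 and 27, Slc24a2 had 7.85 and 33.7 CPM and Pik3r5 0.689 and 2.38 CPM, while their highest lung border values were 7.4 and 0.203 CPM. Without lung centre 42 the fitted log2 fold change of Slc24a2 was -2.51, against -6.99 with it, and that of Pik3r5 -3.77, against -9.19.

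Hsd3b7, an enzyme of bile acid synthesis, had 10.6, 17.6, 31.7 and 42.3 CPM in lung border 40, 56, 57 and 58, against 88.3, 311 and 210 CPM in lung centre 2, 42 and 27. It was the steadiest of the lower genes to the loss of lung centre 42: its fitted log2 fold change was -2.99 with and -2.56 without that library (adjusted p = 0.532 and adjusted p = 0.838 by edgeR). Tpd52, named for its overexpression in human tumours, had 18.9, 13.1, 28.5 and 72.5 CPM at the lung border, against 121, 268 and 109 CPM in the lung centre. Dram2, a lysosomal membrane protein of autophagy, had 16.1, 12.2, 14.1 and 11.4 CPM at the lung border, against 26.7, 247 and 50.6 CPM in the lung centre. Its lung border values were close together, at 13.4 ± 2.13 CPM (SD, n = 4), and the lung centre mean was 108 ± 121 CPM (SD, n = 3) with lung centre 42 and 38.7 CPM without it. Tmem30a, a partner of the flippases that keep lipids on the inner face of the membrane, averaged 28.8 ± 26.3 CPM at the lung border and 171 ± 135 CPM in the lung centre. Igsf3 averaged 41.7 ± 21.6 CPM at the lung border and 249 ± 271 CPM in the lung centre. For Tmem39a the means were 8.64 ± 9.03 CPM at the lung border (SD, n = 4) and 140 ± 191 CPM in the lung centre (SD, n = 3). Without lung centre 42 the lung centre means were 92.7 CPM for Tmem30a, 92.8 CPM for Igsf3 and 30.3 CPM for Tmem39a. Lung centre 42 was the highest of the 7 libraries in all 10 described genes that were lower at the lung border.

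**Figure D2:**
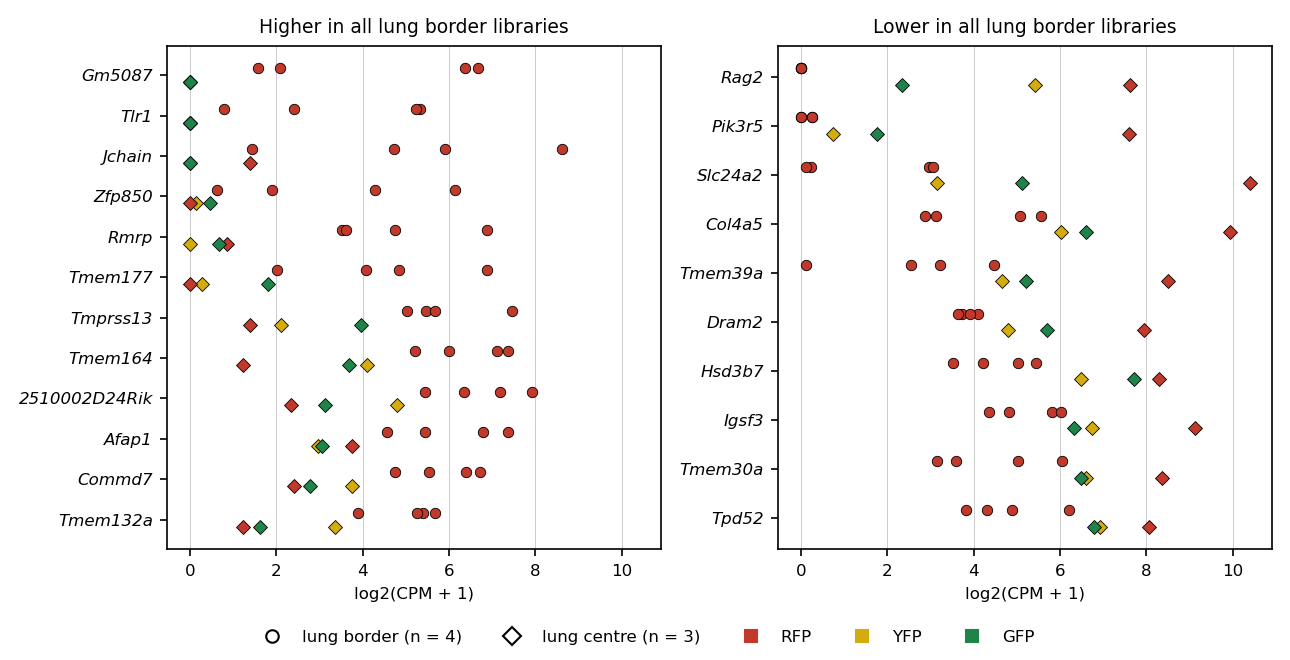
Points give log2(CPM + 1) of the 22 described genes in each library, circles for the 4 lung border and diamonds for the 3 lung centre regions, coloured by reporter. By the choice of genes the groups do not overlap; lung centre 42, the red diamond, is the highest point of all 10 genes in the right panel.

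How far calls rest on 1 library was counted for each tool, a count added after the values were seen. Among all genes tested, 31.2% had 90% or more of the summed CPM of their higher group in 1 library. Among the 1995 genes with an unadjusted p under 0.05 it was 59.9%, with 252 genes resting on lung centre 42. It was 53.2% of the 947 genes called by DESeq2, 89.7% of the 29 called by edgeR with reporter colour as a covariate (23 of them on lung centre 42), and 0 of the 12 called by limma voom. These 12 include Rag2, Tlr1 and Gm5087. Of the other 9, which are given here after their values were seen, 5 had 0 counts in every lung centre library, among them Sgce, a sarcoglycan, with 15.1, 12, 23.4 and 0.913 CPM in lung border 40, 56, 57 and 58, and Neurl1b, a ubiquitin ligase of the Notch pathway, with 20.1, 13.8, 1.37 and 5.38 CPM. The other 4 were high in lung centre 2 and 27 and low in lung centre 42. Limma voom gave lung centre 42 the lowest weight of the 7 libraries, 0.471, against 1.26 and 1.45 for lung centre 2 and 27. Lung border 57 had a weight of 0.608. The voom calls therefore rest less on those 2 libraries, and the part of the weights in them was not tested. Pcbd1, which recycles the cofactor tetrahydrobiopterin, had 0, 0, 0 and 0.101 CPM at the lung border, against 20.8, 0 and 61.6 CPM in lung centre 2, 42 and 27. Ifitm1, an interferon-induced membrane protein, had at most 0.811 CPM at the lung border, against 24.1, 0.806 and 51 CPM in the same order. Adjusted p by limma voom was 0.0236 for Pcbd1 and 0.0476 for Ifitm1.

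Lists of cell type markers and pathways, 38 in all, were then read gene by gene. Of 610 different list genes tested, 0 passed the edgeR test, 36 had an unadjusted p under 0.05 (5.9%, against 8.8% of all genes), and the median log2 fold change was 0.04, against 0.30 over all genes. Only 4 (0.656%) had all lung border values above the lung centre values, and 10 (1.64%) had all below, against 1.61% and 1.32% of all genes. The 4 were Jchain, Gapdh, the urokinase gene Plau and the growth factor Pdgfa. Pdgfa had 11.6, 15.2, 42.9 and 12.4 CPM in lung border 40, 56, 57 and 58, against 2.17, 1.61 and 4.6 CPM in lung centre 2, 42 and 27. Gapdh was at most 5.38 CPM in any of the 7, while Aldoa, of the same glycolysis list, had 456 to 748 CPM at the lung border and 442 to 787 CPM in the lung centre. Gapdh has many near-identical pseudogenes and how multiply aligned reads were counted is not known from the sources used, so its values are uncertain.

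The 10 genes with lower values, named after their values were seen, were spread over 9 lists. Timp3, an inhibitor of matrix metalloproteases, had 27.9, 20.3, 63.1 and 16.3 CPM in lung border 40, 56, 57 and 58, against 131, 202 and 80.6 CPM in lung centre 2, 42 and 27 (fitted log2 fold change -2.11, adjusted p = 0.553 by edgeR). Id2, an inhibitor of basic helix-loop-helix factors and a BMP target, had 466, 526, 351 and 266 CPM at the lung border, against 925, 550 and 549 CPM in the lung centre. Ltbp1, which stores latent TGF-beta in the matrix, had 12, 47.5, 16.4 and 60.3 CPM at the lung border, against 62.5, 146 and 117 CPM in the lung centre. S100a9, a neutrophil calcium-binding protein, had 59.6, 60.2, 46.7 and 48 CPM at the lung border, against 336, 137 and 116 CPM in the lung centre, while its partner S100a8 overlapped (44.2, 79.3, 434 and 364 CPM at the lung border against 554, 45.9 and 129 CPM in the lung centre). Egfl7, secreted by endothelium, had 2.79, 3.81, 1.01 and 7.81 CPM at the lung border, against 37.3, 24.7 and 22.6 CPM in the lung centre, while Pecam1, the general endothelial marker, had 3.98, 8.89, 12 and 17 CPM at the lung border, against 7, 10.7 and 6.09 CPM in the lung centre. The rest were Muc15, Gins2, H2-Q4, Adm and Pgam1.

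Markers of the lung's own cells varied by region. All 12 type 2 alveolar genes had a fold change below 0, with a median of -0.54, and 0 passed. The median stayed below 0 in all 17 alternative settings run for lists, between -1.20 and -0.26. Chil1 of these 12 is not particular to lung here. The carcinoma libraries had 16.2 to 995 CPM of it with a median of 663 CPM, against 336 to 485 CPM at the lung border. Sftpc had 1650, 3440, 388 and 245 CPM in lung border 40, 56, 57 and 58, against 3690, 412 and 958 CPM in lung centre 2, 42 and 27. Lung border 56 and lung centre 2 stood nearly level at the top and lung border 57 and 58 with lung centre 42 at the bottom, so the groups overlap, and the fitted log2 fold change of Sftpc (-0.24) changed sign in 5 of 18 settings. Sftpa1, another surfactant protein, had 87.9, 159, 11.7 and 22.2 CPM at the lung border, against 396, 149 and 173 CPM in the lung centre. The list score, the mean log2(CPM + 1) over its genes, was 6.12, 6.11, 5.27 and 5.07 at the lung border and 7.26, 6.25 and 5.56 in the lung centre. Among the 12 type 1 alveolar genes 9 were below 0 (median -0.84) and 0 passed. Their scores overlapped with lung centre 42 and did not without it, where fewer libraries have to agree. This list is not particular to lung here. Carcinoma libraries scored 2.07 to 3.45, a range that holds lung border 40, 56 and 57 and lung centre 42. Its largest member, Aqp5, had 268 to 2240 CPM in the carcinoma libraries. Scgb1a1, the secretoglobin of airway club cells, had 11.6, 8.34, 0 and 48.4 CPM at the lung border, against 9.97, 9.4 and 0 CPM in the lung centre.

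Red blood cell list scores spread more among the lung border libraries (SD 1.76) than among the lung centre libraries (SD 0.7). Hbb-bs, a beta globin, had 1120, 5220, 42.5 and 240 CPM in lung border 40, 56, 57 and 58, against 197, 180 and 841 CPM in lung centre 2, 42 and 27 (fitted log2 fold change 2.03, adjusted p = 0.673 by edgeR). The alpha globin genes Hba-a1 and Hba-a2 are near-identical copies whose reads cannot be told apart, and both were highest in lung border 56 and 40 and lowest in lung border 57. Macrophage lysozyme Lyz2 had 39.4, 266, 31.1 and 8.72 CPM at the lung border, against 336, 77.9 and 0 CPM in the lung centre. Lung border 56 and lung centre 2 were thus the high libraries for Sftpc and for Lyz2, 1 of each position.

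Of the 38 list scores, 1 did not overlap between positions, beside 2.93% of all single genes tested. Luminal hormone sensing genes scored 3.29, 2.82, 3.26 and 3.26 in lung border 40, 56, 57 and 58, against 3.62, 3.76 and 4.03 in lung centre 2, 42 and 27, with 4 genes above and 7 below 0 and 0 passing. None of its 11 measured members was separated between the positions when taken alone, and they went both ways. Esr1 and Gata3, given next, are among the 4 above 0. Among the 7 below 0, the prolactin receptor gene Prlr averaged 100 CPM at the lung border and 176 CPM in the lung centre. Others of the 7 were high in 1 lung centre library. Foxa1 had 9.28 CPM in lung centre 2 and Wnt4 7.95 CPM in lung centre 27, with at most 0.398 and 0.457 CPM elsewhere. Greb1 had 78.9 CPM in lung centre 42 and at most 8.97 CPM elsewhere. The score gives such genes the same weight as abundant ones. Esr1, the oestrogen receptor, had 109, 104, 36.1 and 17.5 CPM at the lung border, against 27.8, 63.9 and 31.2 CPM in the lung centre. Gata3, a luminal transcription factor, had 541, 462, 405 and 146 CPM at the lung border, against 288, 195 and 301 CPM in the lung centre. Without lung centre 42, scores of 4 lists did not overlap: T, NK and B cell genes were higher at the lung border, and luminal hormone sensing, type 1 alveolar and endothelium genes lower. That leaves 2 lung centre libraries, so fewer libraries have to agree. In that setting 638 single genes were separated higher at the lung border and 1116 lower, of 22665 tested. The T, NK and B cell scores were low, at 0.54 to 1.08 at the lung border against 0.18 and 0.03 in lung centre 2 and 27. Only 1 gene of that list had a count in lung centre 27.

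**Figure D3:**
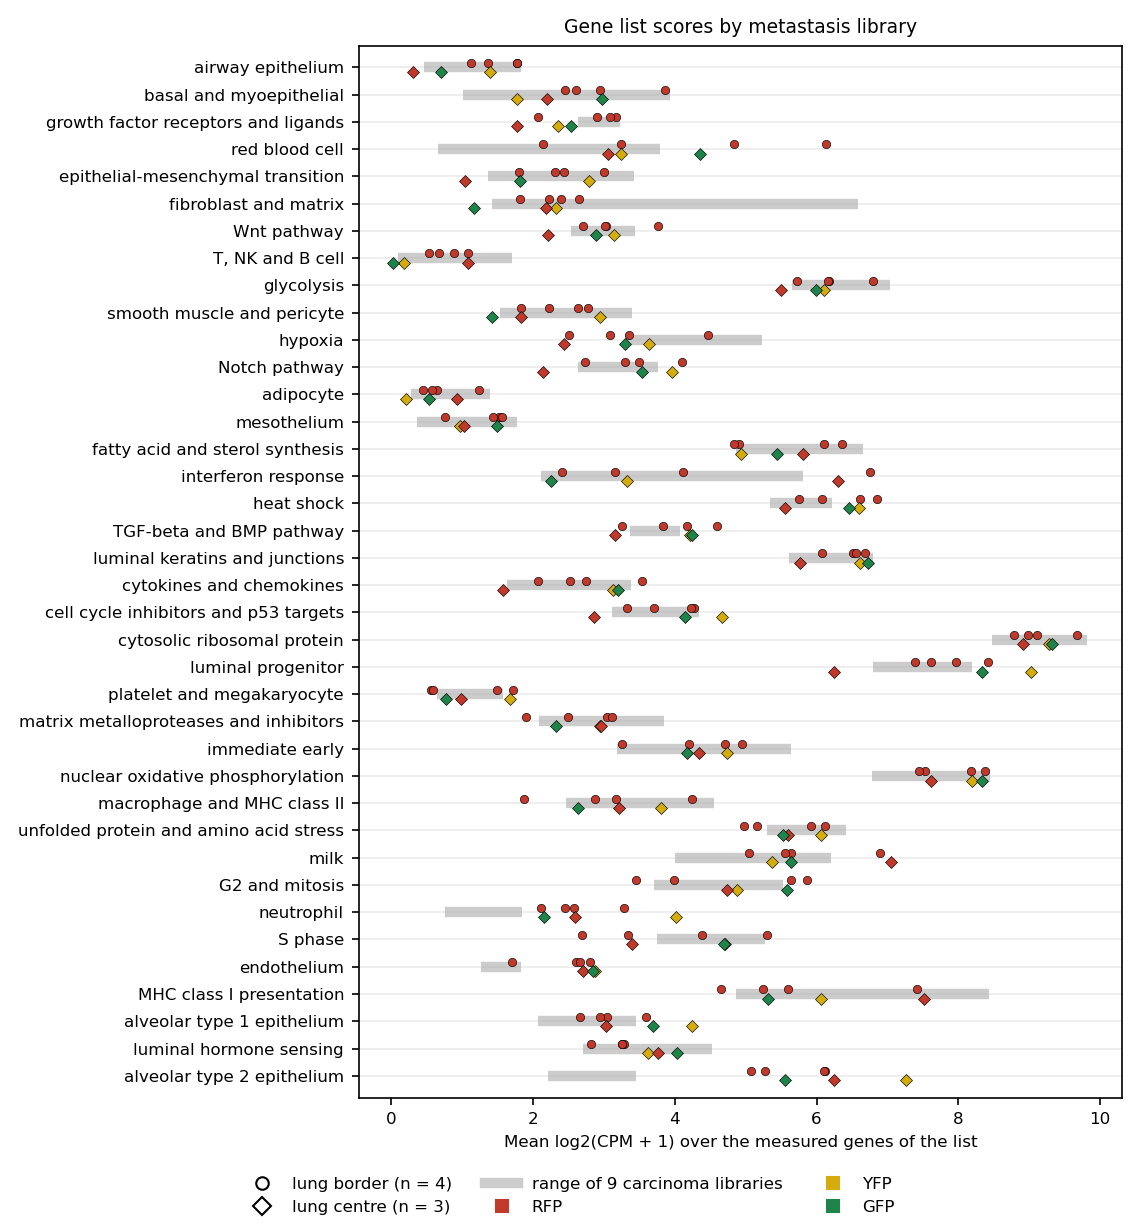
Each row is a gene list and each point the mean log2(CPM + 1) over its measured genes in a library. Circles mark lung border and diamonds lung centre, and grey bars give the range of the 9 carcinoma libraries. Rows are sorted by the mean lung border score minus the mean lung centre score. Circles and diamonds overlap in every row but luminal hormone sensing, and type 2 alveolar genes lie above the carcinoma range in all 7 libraries.

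The widest differences crossed the positions. Lung border 58 and lung centre 42, both red, shared high interferon-stimulated genes, a pattern noticed after the values were seen. They were the 2 highest of the 7 libraries for 16 of 25 interferon response genes (64%) and for 8 of 13 genes of MHC class I presentation (61.5%), against 3.95% of the 18723 genes with a count in at least 2 of the 7. Oas2, an antiviral sensor of double-stranded RNA, had 102, 4.17, 13.9 and 476 CPM in lung border 40, 56, 57 and 58, against 3.5, 979 and 0 CPM in lung centre 2, 42 and 27. Irf7, a transcription factor of the interferon response, had 49.2, 138, 0 and 320 CPM at the lung border, against 48.6, 906 and 25.8 CPM in the lung centre. Both genes were highest in lung border 58 and lung centre 42, and the positions overlap.

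The class I genes followed. H2-K1, a heavy chain, had 350, 842, 838 and 2590 CPM in lung border 40, 56, 57 and 58, against 1070, 2780 and 474 CPM in lung centre 2, 42 and 27. B2m, the shared light chain, had 235, 563, 473 and 2640 CPM at the lung border, against 1290, 2710 and 388 CPM in the lung centre. The list scores show the same split within each position. Interferon scores were 4.11, 3.16, 2.41 and 6.75 at the lung border, against 3.33, 6.31 and 2.26 in the lung centre. Since the high libraries are divided between the positions, the fitted fold changes of these genes turn on which of them is kept: Oas2 had a log2 fold change of -1.14 with all libraries and 6.42 without lung centre 42 (adjusted p = 0.874 and 0.838 by edgeR). Among the 7 libraries, lung border 58 had the most genes with a count (17517) and lung centre 42 the fewest (10383). The part of colour, animal or depth in this pattern was not tested.

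Csn2, beta-casein, a major milk protein, divided the libraries in the same way. It had 0.199, 0.181, 3.29 and 1560 CPM in lung border 40, 56, 57 and 58, against 0, 3140 and 0.0743 CPM in lung centre 2, 42 and 27. The other caseins were less divided. Csn1s1 had 0.199, 5.44, 117 and 590 CPM at the lung border, against 161, 708 and 28.8 CPM in the lung centre, again highest in 58 and 42. Csn3, kappa-casein, had 3760, 5830, 6290 and 5090 CPM at the lung border, against 14000, 3980 and 11100 CPM in the lung centre, where 42 was the low one of the lung centre (fitted log2 fold change -0.89, adjusted p = 0.547 by edgeR). Wfdc18, a secreted whey acidic protein family member, was lowest in the same pair of libraries, with 14700, 18800, 5390 and 1830 CPM at the lung border and 9580, 1480 and 10900 CPM in the lung centre. Over the milk list, 5 of 17 genes (29.4%) had lung border 58 and lung centre 42 as the 2 highest.

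**Figure D4:**
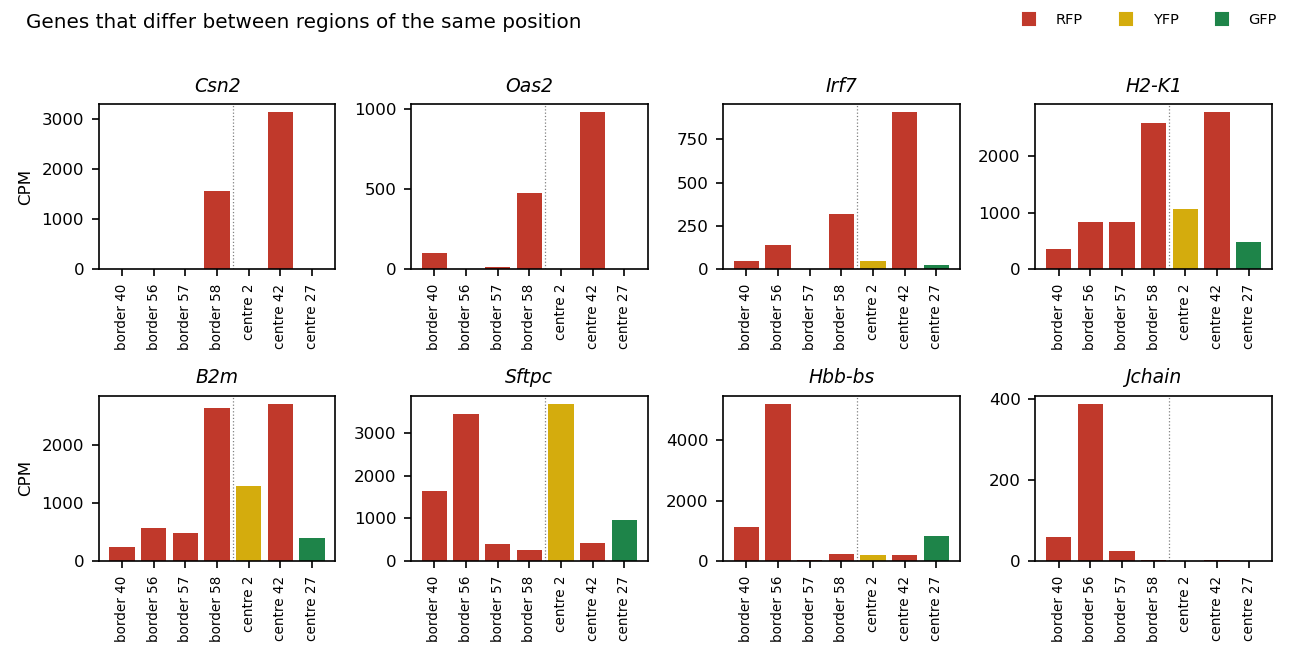
Bars give CPM of 8 genes in each library, on a linear axis of its own for each gene, with lung border left and lung centre right of the dotted line and colours for the reporter. Csn2, Oas2, Irf7, H2-K1 and B2m are highest in lung border 58 and lung centre 42, Sftpc in lung border 56 and lung centre 2, Hbb-bs in lung border 56, and Jchain in lung border 56 and 40.

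Proliferation genes varied by region and overlapped between the positions. Mki67, a nuclear protein of dividing cells, had 69.7, 27.9, 67.3 and 156 CPM in lung border 40, 56, 57 and 58, against 103, 244 and 149 CPM in lung centre 2, 42 and 27. Top2a, the topoisomerase of mitotic chromosomes, had 78.9, 140, 331 and 145 CPM at the lung border, against 172, 113 and 113 CPM in the lung centre. Scores of the 26 genes of G2 and mitosis were 3.99, 3.45, 5.87 and 5.64 at the lung border, against 4.88, 4.73 and 5.58 in the lung centre. Lung border regions thus include both the lowest and the highest score of the 7. Of the 24 S phase genes 13 had a fold change above 0 and 11 below, and 0 passed.

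Invasion and matrix lists gave no call either. Vim, an intermediate filament of mesenchymal cells, had 4.58, 5.08, 19.9 and 57.7 CPM in lung border 40, 56, 57 and 58, against 53.9, 8.06 and 45.6 CPM in lung centre 2, 42 and 27. Col1a1, the fibroblast collagen I chain, had 1.99, 49.7, 35.1 and 32.9 CPM at the lung border, against 18.3, 3.49 and 1.86 CPM in the lung centre (fitted log2 fold change 1.91, adjusted p = 0.553 by edgeR). Epithelial-mesenchymal transition genes were above 0 in 11 of 16 and fibroblast genes in 9 of 16, with list medians of 0.64 and 0.86 and 0 passing in each. Krt14, a basal keratin, had 18.1, 6.53, 66.8 and 77.4 CPM at the lung border, against 8.22, 34.9 and 9.66 CPM in the lung centre.

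Whether the edge differs from the inside in metastases otherwise than in carcinoma was tested as a difference of the 2 contrasts, lung border over lung centre minus carcinoma border over carcinoma core. By edgeR 0 of 22676 genes passed (0%), 2306 were below 0.05 before adjustment, and the lowest adjusted p, 0.0837, was shared by Ugt2a1, Olfr115 and 2900052N01Rik, which are named here for that p. DESeq2 called 789 and limma voom 2. All 3 of those genes were lower on average at the lung border. Ugt2a1 averaged 0.136 CPM at the lung border and 189 CPM in the lung centre. Olfr115, an olfactory receptor, averaged 0 CPM at the lung border and 164 CPM in the lung centre. Only averages are given here, without the share of each library, so a lung centre value may rest on a single library. Among the 22 genes described above for their separation, the smallest adjusted p of this difference was 0.434 by edgeR.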

How the data were processed

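The authors deposited unnormalized read counts of 24454 gene IDs in 32 libraries. Reads were aligned with STAR to mm10, per the submitters' processing notes; not given in the sources used here are the counting program, its annotation, strand setting and treatment of multiply aligned reads. Symbols and positions came from RefSeq GRCm38.p6, the same assembly as mm10 (24374 IDs matched, 80 did not). No molecular identifiers were used, so PCR copies of a molecule count separately.

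After filterByExpr (22676 genes kept) and TMM scaling, an edgeR quasi-likelihood fit of all 32 libraries had 1 term per stage and position (common dispersion 2.35). Tests were two-sided, with a Benjamini-Hochberg threshold of 0.05. CPM uses TMM-scaled library sizes, list scores use a pseudocount of 1, and the floor is 3 counts per library. Software was edgeR 4.0.16, DESeq2 1.42.0 and limma 3.58.1 under R 4.3.3, and the pipeline was tested on simulated data. Besides the 24 genes of the rule given with them, the named genes were the 2 of highest mean CPM in each list and a fixed set of epithelial, milk, proliferation and lung genes. Members, lists (38) and alternatives were chosen with earlier results of these data known. Of the 24 genes, 2 are not reported here. Alternatives were another scaling, filters, tools, covariates, sets of libraries and leaving out each library.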

Additional observations from a re-analysis of the deposited data

Results flagged for a closer look

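In 8 cases, among 106 named genes, 38 list scores and 8 library measures, 1 of the 4 lung border libraries lay far from the other 3: the gap to the nearest, divided by the whole range, exceeded Dixon's critical value for 4 samples. Chance flags about 1 in 20 groups of this size. On the scale of log2(CPM + 1) the ratio was 0.973 for Aqp5, a water channel, at 202 CPM in lung border 58 and 454 to 464 CPM in the others. It was 0.857 for Col1a1, at 1.99 CPM in lung border 40 and 32.9 to 49.7 CPM in the others, and 0.865 for Notch1, at 288 CPM in lung border 40 and 63.8 to 78.3 CPM in the others. Lung border 57 was the high library for Fasn, a fatty acid synthase (0.849, 1080 CPM against 245 to 306 CPM), and for Krt8 (0.865, 749 CPM against 482 to 511 CPM). Pf4, a platelet chemokine, had 29.9 CPM in lung border 56 and 0 counts in the other 3, a ratio of 1. Among list scores the ratio was 0.934 for luminal hormone sensing, with 2.82 in lung border 56 and 3.26 to 3.29 in the others, and 0.854 for mesothelium, with 0.76 in lung border 57 and 1.44 to 1.56 in the others.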

How the results depend on the processing

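The count of 0 genes by edgeR for lung border against lung centre held with another scaling, with each filter, with the metastasis libraries alone, with detected genes as a covariate, without the most abundant gene ID, without libraries under 11000 detected genes, and without each library in turn (0 to 0). It was 29 with reporter colour as a covariate, 33 with only RFP metastases (where the lung centre is 42 alone, assumed to vary like the other groups), 947 with DESeq2 and 12 with limma voom. For the difference from the carcinoma contrast, 0 genes passed in the fit reported, 6 without a filter, 11 with colour as a covariate, 23 with only RFP metastases, 789 with DESeq2, 2 with limma voom, and 0 to 3 without each library in turn. Counts of genes that do not overlap, an alternative added after the values were seen, were 366 higher and 299 lower at the lung border, and 630 and 1121 without libraries under 11000 detected genes, of which lung centre 42 is the only metastasis. They were 638 to 1149 higher and 491 to 1116 lower without each library in turn, where fewer libraries have to agree. Without lung border 57 there were 1149 higher, without lung centre 2 there were 1064 higher, and without lung centre 42 there were 1116 lower. The median log2 fold change of all genes was 0.30 in the fit reported, 0.02 to 0.71 in the other edgeR, DESeq2 and voom settings and 2.94 with only RFP metastases. Up to 24 of the 106 named genes and up to 15 of the 38 list medians changed sign in a setting. The causes were not tested. No paired analysis was possible because each region number in the labels is used once and no number is shared between the positions. Depth limits genes at a few counts, where 3 counts correspond to 0.274 to 0.598 CPM in the lung border libraries and 0.159 to 0.806 CPM in the lung centre libraries.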

Other observations

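Some genes restricted to other tissues had high average CPM in the lung centre. For Aqp2 and Alx4 only averages are given here. The share of lung centre 42 in them is not given, so they may rest on a single library. Aqp2, the vasopressin-regulated water channel of the kidney, averaged 0 CPM at the lung border and 104 CPM in the lung centre, and Alx4, a homeobox gene of limb and skull development, 0.0254 CPM at the lung border and 146 CPM in the lung centre. Plin4, a lipid droplet protein, had 0.398, 0.725, 1.28 and 2.23 CPM in lung border 40, 56, 57 and 58, against 0.159, 340 and 0 CPM in lung centre 2, 42 and 27, while the adipocyte genes Adipoq and Plin1 had 0 counts in all 7. At the lung border, Car3, a carbonic anhydrase, had 23.5, 16.9, 0 and 0 CPM in regions 40, 56, 57 and 58 and 0 counts in the lung centre.

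Secreted and growth factor genes also varied by region. Spp1, osteopontin, had 754, 1220, 1070 and 3890 CPM in lung border 40, 56, 57 and 58, against 2330, 2910 and 1410 CPM in lung centre 2, 42 and 27. Ltf, lactoferrin, had 2470, 2720, 1080 and 865 CPM at the lung border, against 938, 895 and 1340 CPM in the lung centre, and only lung border 40 and 56 exceeded the carcinoma maximum of 2020 CPM. Postn, a matrix protein of fibroblasts, had 0.996, 0.907, 14.2 and 13.7 CPM at the lung border, against 13.3, 147 and 26.8 CPM in the lung centre (fitted log2 fold change -3.05, adjusted p = 0.547 by edgeR, and -1.45 without lung centre 42). Growth factor receptor and ligand genes had a median log2 fold change of 1.47, with 13 of 20 above 0 and 0 passing, and scores that overlapped.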
